A study of Mus musculus with 12 samples.

Results

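The genes described here belong to the Bcl2 family, which sets whether a lymphocyte survives or dies through its mitochondria. They were chosen by symbol from a list of 10 family genes, and 9 of these (Bcl2, Bcl2l1, Mcl1, Bcl2a1b, Bax, Bak1, Bcl2l11, Pmaip1 and Bbc3) had a row among the 20778 rows of the gene table. The tenth, Bcl2a1d, was not analysed here as a row of its own. To compare T cell activation by different stimuli, the study isolated CD8 T cells with MojoSort magnetic beads from spleens of C57BL/6 mice, aged 6 weeks by the labels, and cultured them for 6 h. Cells were left untreated (Naïve) or received αCD3 (1 µg/ml), an antibody to the T cell receptor complex, IFNγ (70 ng/ml), a cytokine of activated lymphocytes, or lipopolysaccharide (LPS, 1 µg/ml), the bacterial ligand of Toll-like receptor 4. Each of the 4 groups had 3 mRNA libraries, so all groups shared the strain, the tissue, the bead isolation and the culture time and differed in the agent. Another label field gives the αCD3 and LPS doses in mg/ml, and the methods of the study state a higher age, so the dose unit and the age are uncertain. No label says that the libraries of a group came from separate mice or cultures, so p-values measure the spread between these libraries, which may be technical.

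Members of this family act against each other at the mitochondrial outer membrane. Bax and Bak1 form the pores that release cytochrome c, the pro-survival proteins (Bcl2, Bcl-xL from Bcl2l1, Mcl1 and A1 from the Bcl2a1 genes) hold them in check, and the BH3-only proteins (Bim from Bcl2l11, Noxa from Pmaip1 and Puma from Bbc3) block the pro-survival proteins. In T cells, Bcl2 and Mcl1 are known for keeping resting cells alive, Bcl-xL and A1 as genes induced by activation and by NF-κB, and Bim as a main driver of the death of activated cells.

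The A1 row had to be read with its sequence in view, since mice carry several nearly identical A1 genes on chromosome 9. The start of the coding sequence is shown for the 3 closest copies (GENCODE M21, GRCm38, bases 1 to 30 counted from the A of the start codon), with every position at which any of them differ in capitals.
Bcl2a1b: atgGctgagtACgagTtcatgTatatccac
Bcl2a1a: atgGctgagtCTgagCtcatgCatatccac
Bcl2a1d: atgTctgagtACgagTtcatgTatatccac
Over the whole coding sequence of 519 bases, Bcl2a1d differed from Bcl2a1b at 6 positions (98.8% identity), written with the Bcl2a1b base first as G4T, T48C, A94C, G312A, C381G and T490A. Bcl2a1a differed at 11 positions (97.9% identity). Of the 787 stretches of 31 bases in the Bcl2a1b transcript, 570 (72.4%) were also in Bcl2a1d and 446 (56.7%) in Bcl2a1a. Only 11.2% were found in no other annotated gene, and some were shared with Gm29094, a gene model that overlaps Bcl2a1b on the same strand. The row named Bcl2a1b (chromosome 9, 89199209 to 89207827, plus strand) may therefore hold reads of Bcl2a1a and Bcl2a1d, and these cannot be told apart here. It is called the A1 row below. The related Bcl2a1c had 1 count in LPS replicate 1, 3 counts in LPS replicate 3 and no count in the other 10 libraries.

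The other rows were largely free of this limit. Of their 31-base stretches, 99.4% or more were found in no other gene for Bcl2 (chromosome 1, 106538178 to 106714274, minus strand), Bcl2l1 (chromosome 2, 152780668 to 152831728, minus), Mcl1 (chromosome 3, 95658788 to 95663176, plus), Bcl2l11 (chromosome 2, 128126038 to 128162547, plus), Bak1 (chromosome 17, 27019810 to 27029009, minus), Bbc3 (chromosome 7, 16308393 to 16318205, plus) and Pmaip1. For Bax (chromosome 7, 45461697 to 45466898, minus) the share was 88.9%, with 164 stretches shared with Gm45808, an overlapping gene model on the same strand.

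Promoter windows from 250 bases before to 50 bases after each annotated start (RefSeq, GRCm38.p6) were searched on both strands for short motifs. These were the NF-κB consensus, the core of the interferon-stimulated response element (ISRE) and the IFNγ-activated site (GAS). Pmaip1 was not searched. Among the 16 windows of the other 8 genes and the A1 copies, 2 held the NF-κB consensus. No other window held it, including those of the A1 copies, Bax and Bcl2l11 and the other windows of Bcl2l1 and Bbc3. The matching stretches are shown with the match in capitals and the gene's strand as printed.
Bcl2l1: tgtttgtgGGGGGTCTCCagcatacgcctc
Bbc3: tctggctgccGGGAAACCCCccgcgccgag
The first lies at chr2:152830938-152830967, with the match starting at position -242 from an annotated start and inside an exon of longer transcripts. The second lies at chr7:16309436-16309465, with the match starting at -137, inside an intron of longer transcripts, and it also matches on the opposite strand. The NF-κB consensus was present in 4.51% of 32851 promoter windows of 300 bases, the ISRE core in 3.44% and GAS in 8.3%. Neither the ISRE core nor GAS was in any of the 16 windows. A match describes letters and says nothing of binding.

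Total counts were between 10.2 M and 27.6 M per library, and all 9 genes were among the 12122 genes that passed the count filter and were tested. The libraries were labelled CD8 T cells and held the T cell markers, with summed levels of 10 genes between 1313 and 2602 CPM (read counts divided by the TMM-scaled size of the library). They also held markers of other spleen cells. The 9 B cell markers summed to 3330 to 3599 CPM in Naïve, 2312 to 2715 in αCD3, 2657 to 2757 in IFNγ and 1972 to 3013 in LPS, with LPS replicate 1 highest, and per kb of exon their mean was above that of the T cell markers in all 4 groups. The ranges were 163 to 180.5 CPM per kb against 67.6 to 75.1 in Naïve, 109 to 135 against 94.1 to 102 in αCD3, 131 to 143 against 71.5 to 74.6 in IFNγ and 64.0 to 111 against 58.7 to 65.8 in LPS. The 12 myeloid markers summed to 419 to 785 CPM in Naïve, 289 to 436 in αCD3, 344 to 669 in IFNγ and 250 to 442 in LPS, and no marker of either list was at 0 in all libraries. Bcl2 family genes are expressed in all these cells, so the levels below are those of the mixture, and in such bulk samples fewer cells of a type and less RNA per cell cannot be told apart. The part of these other cells in the results was not tested.

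Compared with Naïve, LPS changed 5 of the 9 genes (edgeR's quasi-likelihood test with Benjamini-Hochberg adjustment, adjusted p under 0.05, referred to as called). Bcl2l1, the A1 row, Bax and Bcl2l11 rose and Mcl1 fell, against 26.9% of all tested genes called higher and 22.3% called lower. αCD3 changed 3, with Bcl2l1 and Bax higher and Mcl1 lower (22.9% of all genes higher, 15.7% lower). IFNγ changed none of the 9 by edgeR, DESeq2 or limma-voom, with 1 gene at an unadjusted p under 0.05 (Bak1), against 8.17% of all genes called higher and 4.27% lower. The median log2 fold change of the 9 genes was 0.30 in LPS, 0.25 in αCD3 and 0.02 in IFNγ, while over all tested genes it was -0.01, -0.02 and -0.02. Across the 4 groups together, 5 of the 9 differed (Bcl2l1, the A1 row, Bax, Mcl1 and Bcl2l11), against 59.9% of all genes. Libraries with the same replicate number deviated together from their group means, so a fit with the number as a block was also made. It called 7 of the 9 genes in LPS (59.5% of all genes in either direction), 5 in αCD3 (52.4%) and 1 in IFNγ (24.9%), and it kept every call of the fit without the block.

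**Figure D1:**
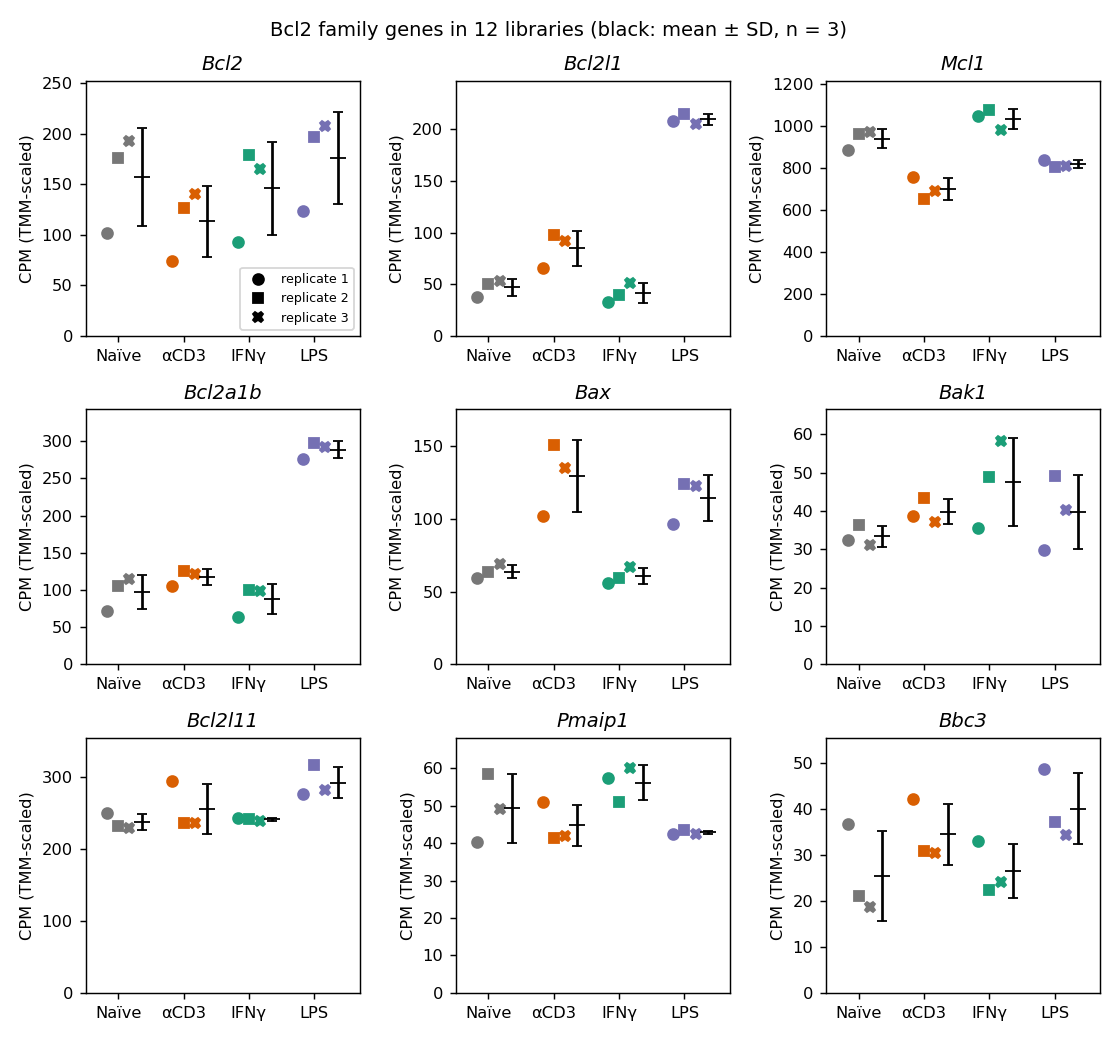
CPM on TMM-scaled library sizes (vertical axis, from 0) of the 9 genes in Naïve, αCD3, IFNγ and LPS, with circles, squares and crosses for replicates 1, 2 and 3 and the mean ± SD (n = 3) in black. The 3 LPS libraries lie above the other 9 for Bcl2l1 (205 to 215 CPM) and for the A1 row (276 to 298 CPM), and replicate 1 is the lowest of its group for Bcl2 throughout.

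Among the pro-survival genes, Bcl2l1 moved furthest. Its level was 37.8, 50.2 and 52.9 CPM in the 3 Naïve libraries, 33.2, 39.3 and 51.7 in IFNγ, 65.8, 97.3 and 91.4 in αCD3, and 208, 215 and 205 in LPS. All LPS libraries were above all αCD3 libraries, which in turn were above all Naïve libraries, while IFNγ and Naïve overlapped. The level rose 4.47-fold in LPS (log2 fold change 2.16 ± 0.19 SE, adjusted p = 1.20e-05) and 1.80-fold in αCD3 (0.85 ± 0.19, adjusted p = 0.00477). The direct comparison put αCD3 below LPS by a log2 difference of -1.31 ± 0.18 (adjusted p = 8.42e-04). In IFNγ the log2 fold change was -0.18 ± 0.19 (adjusted p = 0.605).

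The A1 row was high in LPS. It stood at 72.1, 105 and 115 CPM in Naïve, 64.3, 99.6 and 99.3 in IFNγ, 105, 126 and 122 in αCD3, and 276, 298 and 291.9 in LPS. The 3 LPS libraries were apart from the other 9, and αCD3 overlapped Naïve through αCD3 replicate 1. A1 rose 2.96-fold in LPS (log2 fold change 1.56 ± 0.19, adjusted p = 9.03e-05), and with Bcl2a1c added to the row the value was 1.57. In αCD3 the log2 fold change was 0.27 ± 0.19 (adjusted p = 0.280), below LPS by -1.29 ± 0.19 (adjusted p = 0.00108). With 1 library left out the αCD3 value ran from 0.09 to 0.41. It was called in 1 of 22 alternatives, with replicates 2 and 3 only (0.17, range over 22 alternatives 0.0344 to 0.707). IFNγ lay below αCD3 by -0.42 (adjusted p = 0.105), a difference called with the replicate block (-0.45 ± 0.11, adjusted p = 0.00935, range over 22 alternatives 0.00141 to 0.288).

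Mcl1, whose protein turns over quickly, went the other way. It had 888, 962 and 972 CPM in Naïve, 1049, 1076 and 983 in IFNγ, 757, 653 and 693 in αCD3, and 842, 808 and 809 in LPS. No 2 groups overlapped, with IFNγ on top, then Naïve, then LPS, then αCD3. Mcl1 fell in αCD3 to 0.745 of its Naïve level (log2 fold change -0.42 ± 0.07, adjusted p = 6.20e-04) and in LPS to 0.871 (-0.20 ± 0.07, adjusted p = 0.0280). The LPS call was lost without Naïve replicate 2, Naïve replicate 3, LPS replicate 2 or LPS replicate 3, with adjusted p up to 0.0906. In IFNγ the log2 fold change was 0.14 ± 0.07 (adjusted p = 0.219).

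Bcl2 itself differed more between replicate numbers than between groups. Its level was 102, 176 and 193 CPM in Naïve replicates 1, 2 and 3, 93.3, 179 and 165.5 in IFNγ, 73.8, 126 and 140.2 in αCD3, and 123, 197 and 207 in LPS. Replicate 1 was the lowest library of every group, and all 4 groups overlapped. No comparison was called on all 12 libraries without the block, with log2 fold changes of -0.47 ± 0.34 in αCD3 (adjusted p = 0.291), 0.16 ± 0.34 in LPS (adjusted p = 0.714) and -0.11 ± 0.34 in IFNγ (adjusted p = 0.885). With replicates 2 and 3 only, Bcl2 was called in αCD3 against Naïve (-0.46) and LPS (-0.60), and in IFNγ against αCD3 (0.35) and LPS (-0.25). With the block, Bcl2 was lower in αCD3 (-0.47 ± 0.06, adjusted p = 9.40e-05, range over 22 alternatives 9.40e-05 to 0.616) and higher in LPS (0.18 ± 0.06, adjusted p = 0.0248, range 0.0248 to 0.959). Within each replicate number the αCD3 library was below the Naïve library and the LPS library above it. Scaled by library size only, the LPS value turned to -0.05.

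The pore formers were unlike each other. Bax had 59.5, 63.3 and 68.7 CPM in Naïve, 56.3, 59.5 and 66.9 in IFNγ, 102, 151 and 135 in αCD3, and 96.4, 124 and 123 in LPS. The αCD3 and LPS libraries were all above the Naïve and IFNγ libraries, and they overlapped each other. Bax rose 2.02-fold in αCD3 (log2 fold change 1.02 ± 0.14, adjusted p = 3.37e-04) and 1.79-fold in LPS (0.84 ± 0.14, adjusted p = 7.63e-04), and the difference between αCD3 and LPS was 0.17 ± 0.14 (adjusted p = 0.434). In IFNγ the log2 fold change was -0.07 ± 0.14 (adjusted p = 0.819).

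Bak1 stayed between 29.96 and 58.3 CPM in all libraries. It had 32.5, 36.4 and 31.2 CPM in Naïve, 38.8, 43.4 and 37.2 in αCD3, 35.5, 48.9 and 58.3 in IFNγ, and 29.96, 49.2 and 40.4 in LPS. The αCD3 libraries lay just above the Naïve libraries, and IFNγ and LPS overlapped Naïve. The log2 fold change was 0.51 ± 0.19 in IFNγ (adjusted p = 0.121), and with the block it was 0.49 ± 0.15 (adjusted p = 0.0439, range over 22 alternatives 0.0107 to 0.377). That was the only one of the 9 genes called for IFNγ against Naïve with the block. The values in αCD3 and LPS were 0.25 ± 0.19 (adjusted p = 0.319) and 0.26 ± 0.19 (adjusted p = 0.290). With 1 library left out the LPS value ran from 0.08 to 0.42. It was called in 1 of 22 alternatives, with replicates 2 and 3 only (0.41, range over 22 alternatives 0.0328 to 0.846). An antisense neighbour, Ggnbp1, overlaps Bak1 on the opposite strand, and reads of the pair cannot be told apart if the counting did not use strand.

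**Figure D2:**
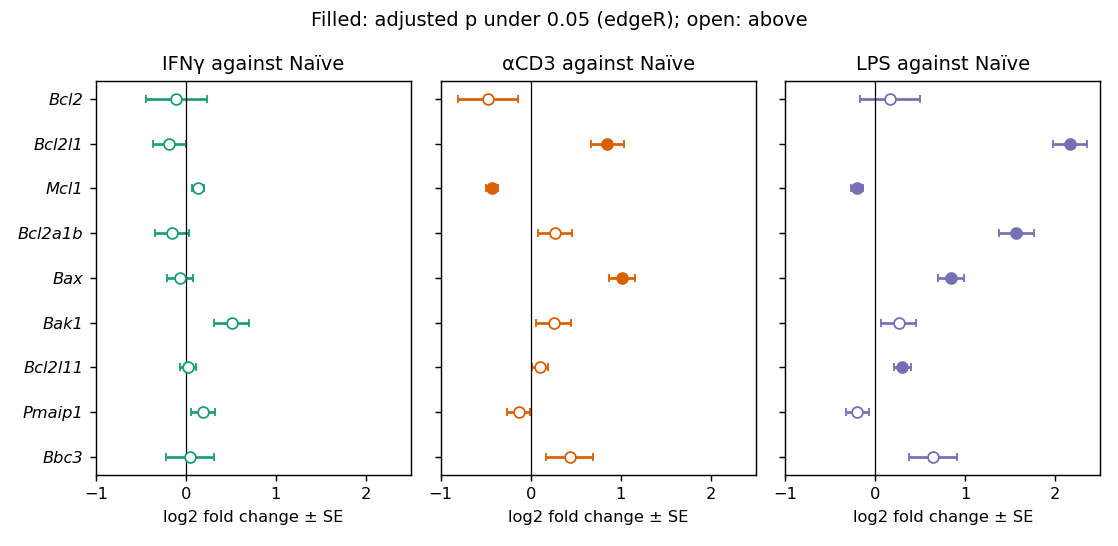
Log2 fold change against Naïve (horizontal axis, bars ± SE) of the 9 genes for IFNγ, αCD3 and LPS, filled where edgeR's adjusted p was under 0.05. The 5 filled points of LPS run from -0.20 (Mcl1) to 2.16 (Bcl2l1), αCD3 has 3 filled points from -0.42 (Mcl1) to 1.02 (Bax), and IFNγ has none.

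Of the BH3-only genes, Bcl2l11 was the most abundant in reads. Its level was 251, 232 and 229.6 CPM in Naïve, 243, 242 and 239 in IFNγ, 295, 236 and 235 in αCD3, and 277, 317 and 283 in LPS. The LPS libraries were above the Naïve and IFNγ libraries, and the αCD3 range, from 235 to 295, overlapped every other group. Bcl2l11 rose 1.23-fold in LPS (log2 fold change 0.30 ± 0.09, adjusted p = 0.0199). This call was kept in 18 of 22 alternatives. It was lost with library size alone (0.09), and without Naïve replicate 2, Naïve replicate 3 or LPS replicate 2, with adjusted p between 6.19e-04 and 0.474 over all alternatives. The log2 fold change was 0.10 ± 0.09 in αCD3 (adjusted p = 0.393) and 0.02 ± 0.09 in IFNγ (adjusted p = 0.914).

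Bbc3, a p53 target, was highest in replicate 1 of every group. It had 36.8, 21.1 and 18.7 CPM in Naïve, 33.1, 22.4 and 24.1 in IFNγ, 42.2, 30.9 and 30.4 in αCD3, and 48.8, 37.2 and 34.3 in LPS. Within each replicate number the LPS library was the highest and the αCD3 library came next. Without the block the log2 fold change was 0.64 ± 0.26 in LPS (adjusted p = 0.0662, and called by DESeq2) and 0.43 ± 0.26 in αCD3 (adjusted p = 0.216). With the block both were called, at 0.68 ± 0.10 in LPS (adjusted p = 2.01e-04, range over 22 alternatives 6.99e-05 to 0.210) and 0.46 ± 0.10 in αCD3 (adjusted p = 0.00315, range 5.70e-04 to 0.511). Both calls were also made without Naïve replicate 1, at 1.008 in LPS (adjusted p = 0.00562) and 0.80 in αCD3 (adjusted p = 0.0211). With 1 library left out the value ran from 0.46 to 1.008 in LPS and from 0.25 to 0.80 in αCD3, lowest without Naïve replicate 3 in both, and in αCD3 it was also 0.25 without αCD3 replicate 1. In IFNγ the value was 0.05 ± 0.27 (adjusted p = 0.934).

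Pmaip1 varied least in LPS, with 42.5, 43.4 and 42.6 CPM. It had 40.2, 58.5 and 49.2 CPM in Naïve, 51.0, 41.3 and 41.8 in αCD3, and 57.4, 51.0 and 60.0 in IFNγ. The IFNγ libraries were above the LPS libraries, and all groups overlapped Naïve. Against Naïve the log2 fold changes were 0.19 ± 0.13 in IFNγ (adjusted p = 0.410), -0.13 ± 0.13 in αCD3 (adjusted p = 0.439) and -0.20 ± 0.13 in LPS (adjusted p = 0.228). The LPS value was called in 3 of 22 alternatives (adjusted p from 0.0256 to 0.711), and scaled by library size only it was -0.41. It was called without Naïve replicate 1 (-0.33). The αCD3 value was called in 1 alternative, with replicates 2 and 3 only (-0.36, range over 22 alternatives 0.0170 to 0.979). IFNγ was above αCD3 by 0.32 ± 0.13 (adjusted p = 0.0741), which was called in 5 of 22 alternatives (range 0.0135 to 0.205), among them those without Naïve replicate 1, Naïve replicate 2 or αCD3 replicate 1.

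IFNγ was next set against the other stimuli. Compared with LPS, 6 of the 9 genes differed, with Mcl1 and Pmaip1 higher in IFNγ (18% of all tested genes higher) and Bcl2l1, the A1 row, Bax and Bcl2l11 lower (22.4% lower). The log2 difference was -2.34 ± 0.19 for Bcl2l1 (adjusted p = 7.13e-06), -1.72 ± 0.19 for A1 (adjusted p = 5.28e-05) and -0.91 ± 0.15 for Bax (adjusted p = 5.22e-04). Mcl1 was 1.26-fold higher in IFNγ (0.34 ± 0.07, adjusted p = 0.00202). Pmaip1 was higher by 0.39 ± 0.13 (adjusted p = 0.0351) and Bcl2l11 lower by a log2 difference of -0.28 ± 0.09 (adjusted p = 0.0335). The last calls were each kept in 16 of 22 alternatives, and were lost in 5 of the 12 fits that left out a library, which were those without IFNγ replicate 1, IFNγ replicate 3, LPS replicate 2 or LPS replicate 3 for both genes, without LPS replicate 1 for Pmaip1 and without IFNγ replicate 2 for Bcl2l11. With the block, Bcl2 (-0.28, adjusted p = 0.00239, range over 22 alternatives 0.00239 to 0.963) and Bbc3 (-0.60, adjusted p = 6.23e-04, range 5.33e-04 to 0.265) were also lower in IFNγ, making 8 of 9 (52.7% of all genes).

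Compared with αCD3, 3 of the 9 differed. Mcl1 was 1.48-fold higher in IFNγ (log2 difference 0.56 ± 0.07, adjusted p = 9.22e-05), against 15.8% of all genes higher. Bcl2l1 (-1.03 ± 0.19, adjusted p = 0.00152) and Bax (-1.09 ± 0.15, adjusted p = 2.08e-04) were lower, against 21.4% lower. The block added Bcl2, higher in IFNγ by 0.36 (adjusted p = 5.65e-04, range over 22 alternatives 5.65e-04 to 0.798), and the A1 row and Bbc3, the latter lower by a log2 difference of -0.38 (adjusted p = 0.0103, range 0.00587 to 0.622), which made 6 of 9 (49.7% of all genes). The 3 comparisons of IFNγ share the IFNγ libraries, and those with Naïve share the Naïve libraries.

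Between αCD3 and LPS, 3 of the 9 genes differed, all lower in αCD3 (9.76% of all genes lower, 9.64% higher). They were Bcl2l1 and the A1 row, given above, and Mcl1 (-0.23 ± 0.07, adjusted p = 0.0362). The Mcl1 call was kept in 11 of 22 alternatives, with adjusted p from 0.00501 to 0.276, and 8 of the 12 fits that left out a library lost it, all but those without Naïve replicate 1, αCD3 replicate 1, IFNγ replicate 2 or IFNγ replicate 3. Bcl2 was lower in αCD3 with the block (-0.65, adjusted p = 3.04e-05, range over 22 alternatives 3.04e-05 to 0.488), making 4 of 9 (34.7% of all genes).

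To place the genes on a common scale, levels were divided by the exon length of each gene. In Naïve the order was Mcl1 (275 CPM per kb), the A1 row (119), Bax (40.5) and Bcl2l11 (29.6), each apart from the next over the 3 libraries. Pmaip1 (18.0), Bcl2 (17.2), Bak1 (13.9), Bbc3 (12.02) and Bcl2l1 (10.2) followed, with neighbours that overlapped. In LPS the A1 row (353 CPM per kb) stood above Mcl1 (240), and Bcl2l1 (45.7) stood in the fourth place, above Bcl2l11 (36.4). In αCD3 Mcl1 (205), A1 (144), Bax (82.1) and Bcl2l11 (31.8) led and Bcl2 (12.4) was last. In IFNγ Bcl2l1 (9.03) was last, as in Naïve. The lower places depended on the length used. With the longest transcript in place of merged exons, Bcl2l1 had a mean of 18.3 CPM per kb in Naïve, next to Pmaip1 (18.1) and above the means of Bbc3 (14.1) and Bak1 (14.0), and Bbc3 (14.6) was last in IFNγ, while the first 4 genes kept their order in each group.

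The levels per kb of the 4 pro-survival genes were also taken as shares of their sum within each library, where a share moves with the other 3 genes as well as with the gene itself. Mcl1 held 65.6% ± 4.56 (SD, n = 3) in Naïve, 69.8% ± 5.58 in IFNγ, 54.0% ± 4.77 in αCD3 and 36.5% ± 1.62 in LPS. The A1 row held 28.02% ± 3.57, 24.5% ± 4.36, 37.9% ± 3.00 and 53.7% ± 1.02 in the same order, and Bcl2l1 2.41% ± 0.151, 2.07% ± 0.435, 4.86% ± 0.904 and 6.95% ± 0.161. Bcl2 held 4.002% ± 0.846 in Naïve and 2.91% ± 0.714 in LPS. The LPS libraries did not overlap the Naïve libraries for Mcl1, A1 or Bcl2l1. The share of Mcl1 did not follow its own level. Its level was lowest in αCD3 (205 CPM per kb, against 240 in LPS and 275 in Naïve), while its share was lowest in LPS, where the A1 row had 353 CPM per kb against 144 in αCD3. The size of each share rested on the division by length. In CPM without it, Mcl1 held 54.9% and A1 19.3% in LPS, against 76.0% and 7.78% in Naïve, so that Mcl1 stayed above A1 in LPS too.

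**Figure D3:**
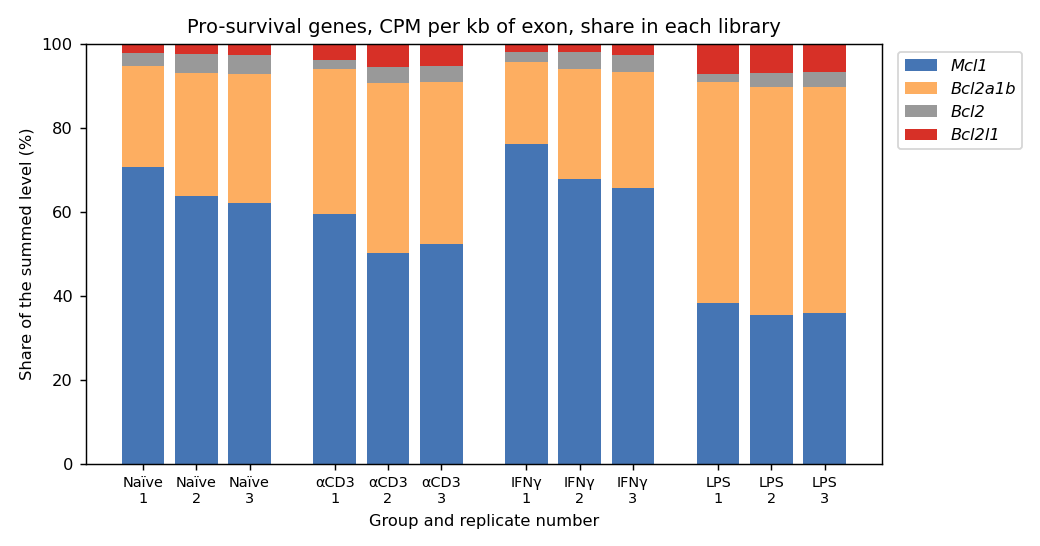
Share (%, vertical axis) of Mcl1, Bcl2a1b, Bcl2 and Bcl2l1 in their summed level per kb of exon, 1 stacked bar for each of the 12 libraries. Mcl1 takes 62.1% to 70.7% of the bar in Naïve and 35.3% to 38.3% in LPS, where Bcl2a1b takes 52.5% to 54.5%.

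The spread of log2 CPM over the 12 libraries was then divided into a share between groups, a share between replicate numbers and a rest. Groups held 95.2% of it for Bcl2l1, 92.5% for Mcl1, 90.9% for the A1 row and 90.0% for Bax. For Bcl2 groups held 26.6% and replicate numbers 72.0%, and for Bbc3 they held 49.0% and 45.5%. The median over all tested genes was 70.5% for groups and 11.7% for numbers. Pmaip1 (46.8%) and Bak1 (30.2%) had the largest rest. The myeloid marker sum was also lowest in replicate 1 of every group, at 419, 289, 344 and 250 CPM in Naïve, αCD3, IFNγ and LPS, where replicates 2 and 3 held 785 and 779, 371 and 436, 669 and 668, and 413 and 442. Its part in the values of Bcl2 and Bbc3 was not tested.

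**Figure D4:**
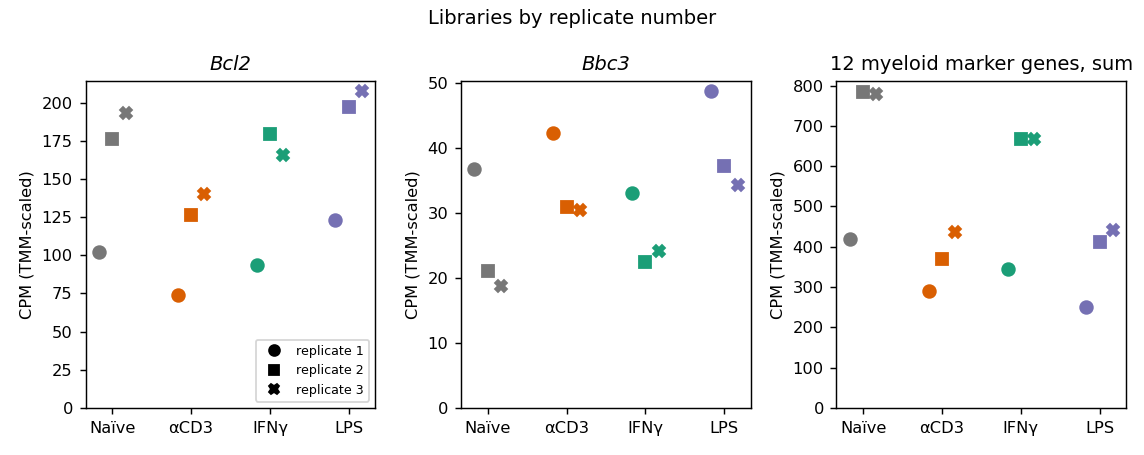
CPM on TMM-scaled library sizes (vertical axes, from 0) of Bcl2, Bbc3 and the sum of 12 myeloid marker genes by group, with circles, squares and crosses for replicates 1, 2 and 3. In all 4 groups replicate 1 is the lowest library for Bcl2 (73.8 to 123 CPM) and for the marker sum (250 to 419 CPM), and the highest for Bbc3 (33.1 to 48.8 CPM).

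Genes whose profile over the 12 libraries was most like that of a member were listed for the 3 members whose group means spanned at least 1 on the log2 scale, by the root mean square difference of centred log2 CPM. For Bcl2l1 they were Hk2, a hexokinase (0.224), and Alpl, an alkaline phosphatase (0.282). For the A1 row they were Clec4e, a C-type lectin receptor (0.175), and BC035044 (0.197). For Bax they were Pinx1, a telomerase inhibitor (0.0895), and Pgam1, an enzyme of glycolysis (0.0907). Clec4e had mean levels of 46.2 CPM in Naïve, 58.6 in αCD3, 50.1 in IFNγ and 152 in LPS. Pgam1 had 136, 259, 125 and 245 CPM in that order.

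Other genes of the Bcl2 family were measured next to these. Of 16 listed, 15 had a row and 9 were tested, and 1 rose in IFNγ, 1 rose and 2 fell in αCD3, and 1 rose and 3 fell in LPS. The shares of all tested genes that rose and fell were 8.17% and 4.27% in IFNγ, 22.9% and 15.7% in αCD3, and 26.9% and 22.3% in LPS, beside which the counts without the block of this and the following gene lists stand. With the replicate block, counts stand beside 24.9% of all genes called in either direction in IFNγ, 52.4% in αCD3 and 59.5% in LPS. No call in these lists was lost with it, and the number called in αCD3 went from 3 to 5 of 9 (2 higher, 3 lower), against those 52.4%. Bcl2l14, a divergent family member, was the one that rose in IFNγ, from 4.24, 4.54 and 3.87 CPM in Naïve to 14.4, 15.7 and 17.3 (log2 fold change 1.91 ± 0.23, adjusted p = 7.45e-04). Its αCD3 and LPS libraries lay between 3.46 and 8.77 CPM, below every IFNγ library. Bid, the BH3-only protein that links death receptors to mitochondria, rose in LPS (0.85, adjusted p = 3.07e-05) and in αCD3 (0.45, adjusted p = 0.00252). Bad, a BH3-only antagonist of Bcl-xL, fell in αCD3 (-0.80, adjusted p = 3.39e-04) and LPS (-0.60, adjusted p = 0.00148). The mitophagy receptor Bnip3l fell in αCD3 (-0.68, adjusted p = 0.00319) and LPS (-0.83, adjusted p = 7.06e-04), and Bnip3 fell in LPS (-0.65, adjusted p = 0.00167).

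Downstream of the pores, 12 genes of mitochondrial death execution were tested. In αCD3 6 rose and 2 fell (median log2 fold change 0.34), in LPS 5 rose and 2 fell (0.15), and in IFNγ 2 rose and 1 fell (0.01). With the block, 3 rose and 4 fell in IFNγ, where 24.9% of all genes were called. Cycs, which encodes the cytochrome c released by Bax and Bak1, rose by 0.92 ± 0.21 in αCD3 (adjusted p = 0.00562) and 1.19 ± 0.21 in LPS (adjusted p = 9.71e-04). Casp9, the caspase that cytochrome c activates through Apaf1, fell in both (-0.75, adjusted p = 0.00131, and -1.05, adjusted p = 1.12e-04), as did the executioner Casp6 (-0.76, adjusted p = 0.0268, and -0.90, adjusted p = 0.00999). In IFNγ the mitochondrial nuclease gene Endog fell (-0.52, adjusted p = 0.0351) and Vdac2, a channel of the outer membrane, rose (0.38, adjusted p = 0.0357).

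Of 7 inhibitors of caspases and death receptors, 5 rose and 1 fell in LPS (median log2 fold change 0.65), 1 rose and 1 fell in αCD3 (-0.04), and 2 rose in IFNγ (0.24). Cflar, which encodes the caspase-8 inhibitor FLIP, rose in all 3, from 145, 147 and 160 CPM in Naïve to 402, 489 and 444 in LPS (log2 fold change 1.56 ± 0.11, adjusted p = 3.43e-06). The changes in IFNγ and αCD3 were 0.67 ± 0.11 (adjusted p = 0.00328) and 0.50 ± 0.11 (adjusted p = 0.00508). Traf1 (1.22, adjusted p = 4.96e-06) and Birc2 (0.95, adjusted p = 0.00684) rose in LPS, and Xiap rose in IFNγ (0.27, adjusted p = 0.0429). Birc3 fell in αCD3 (-0.17, adjusted p = 0.0334) and rose in LPS (0.65, adjusted p = 9.88e-06).

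Bax, Bbc3 and Pmaip1 are known targets of p53, and 17 other genes of the p53 response were tested. Of these 3 members, Bax was called in αCD3 and LPS. Bbc3 and Pmaip1 were called in no comparison with Naïve in the edgeR fit of all 12 libraries with TMM factors and no block. Some alternatives called them, as given above. In αCD3 8 rose and 2 fell (median log2 fold change 0.49), in LPS 6 rose and 3 fell (0.32), and in IFNγ 2 rose and 1 fell (0.03). With the block, 6 rose and 1 fell in IFNγ (24.9% of all genes called in either direction), 10 rose and 3 fell in αCD3 (52.4%), and 8 rose and 4 fell in LPS (59.5%). Phlda3, a repressor of Akt, rose from 3.56, 4.14 and 3.69 CPM to 16.5, 29.5 and 23.3 in αCD3 (2.60 ± 0.20, adjusted p = 8.64e-06), and it rose by 0.87 in LPS (adjusted p = 0.00391). Aen, an apoptosis-enhancing nuclease, rose in αCD3 (1.45, adjusted p = 1.23e-05) and LPS (1.31, adjusted p = 1.22e-05), and Zmat3 rose in αCD3 (1.40, adjusted p = 2.21e-05). The death receptor Fas rose in IFNγ (1.06, adjusted p = 9.62e-04), in LPS (1.08, adjusted p = 9.73e-05) and in αCD3 (0.49, adjusted p = 0.0161). Mdm2, the ubiquitin ligase of p53, rose in IFNγ (0.28, adjusted p = 0.0243). Sesn1 fell in LPS (-1.21, adjusted p = 0.00340) and Sesn2 in IFNγ (-0.49, adjusted p = 0.0137). The other genes of the list that fell are named after their values were seen, as is Cdkn1a. They were Btg2, an antiproliferative gene (-0.63, adjusted p = 0.00123, in αCD3 and -0.94, adjusted p = 5.97e-05, in LPS), and Rrm2b, a ribonucleotide reductase subunit (-0.51, adjusted p = 0.00352, and -0.40, adjusted p = 0.0102). Cdkn1a, which encodes the cell cycle inhibitor p21, was not called without the block, with 0.62 in αCD3 (adjusted p = 0.211), 0.48 in LPS (adjusted p = 0.306) and 0.24 in IFNγ (adjusted p = 0.742). Within each replicate number its αCD3, LPS and IFNγ libraries were above the Naïve library.

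A further list held 14 genes, which were regulators of BH3-only genes, regulators of BH3-only proteins or genes of the stress response. Of these, 9 rose and 1 fell in LPS (median log2 fold change 0.51), 4 rose and 1 fell in αCD3 (0.09), and 1 rose and 1 fell in IFNγ (-0.02). Pim3, a kinase that inactivates Bad, rose in LPS (1.04, adjusted p = 1.11e-06) and αCD3 (0.52, adjusted p = 8.12e-05). Atf3, a stress-induced transcription factor, rose in LPS (1.70, adjusted p = 0.00776), as did Chac1, a gene of the stress response (1.21, adjusted p = 9.44e-05). Dynll2, the dynein light chain that binds the BH3-only protein Bmf, rose in αCD3 (0.75, adjusted p = 9.09e-04), IFNγ (0.50, adjusted p = 0.0259) and LPS (0.38, adjusted p = 0.0270). In each comparison 1 gene fell. It was Tsc22d3, a glucocorticoid-induced gene, in αCD3 (-1.19 ± 0.29, adjusted p = 0.00903), the largest change of the list there, and the kinase Akt1 in IFNγ (-0.34, adjusted p = 0.00978). In LPS it was the transcription factor Foxo3 (-0.64, adjusted p = 0.00232), named after its value was seen. Of 6 genes of Mcl1 protein turnover, 2 rose and 1 fell in LPS and 1 rose and 1 fell in αCD3, while in IFNγ none was called by edgeR, DESeq2 or limma-voom, with 1 at an unadjusted p under 0.05, and 1 was lower with the block (24.9% of all genes). The ubiquitin ligase subunit Fbxw11 rose (0.44, adjusted p = 4.53e-04, in αCD3 and 0.28, adjusted p = 0.00506, in LPS) and the kinase Gsk3b fell (-0.35, adjusted p = 0.0146, and -0.32, adjusted p = 0.0163). Fbxw7, another subunit of this kind, rose in LPS (0.28, adjusted p = 0.0240).

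Marker lists moved with the stimuli as well. In LPS 8 of 10 T cell markers fell, and 1 of 9 B cell markers rose while 3 fell. Of 12 myeloid markers, 8 fell and 1 rose in LPS (median log2 fold change -1.14) and 5 fell in αCD3 (-0.82), while 6 T cell markers rose and 5 B cell markers fell in αCD3. In IFNγ 2 B cell markers and 1 myeloid marker fell. Of 9 tested neutrophil markers, 3 fell in LPS and 2 in αCD3. Of 6 dendritic cell markers, 2 fell in IFNγ, 2 fell in αCD3, and 1 rose and 1 fell in LPS. Of 6 NK cell markers, 1 rose in IFNγ and 1 in αCD3 (Eomes in both, named after its value was seen), and 2 fell in LPS. Of 4 CD4 T cell markers, 3 fell in LPS, and 1 rose and 2 fell in αCD3. With the replicate block more markers were called, and so were more of all genes (24.9% in IFNγ, 52.4% in αCD3 and 59.5% in LPS, in either direction). In IFNγ these were 3 T cell markers (1 higher, 2 lower), 7 myeloid markers (3 higher, 4 lower) and 2 NK cell markers (both higher). In αCD3 10 myeloid and 6 neutrophil markers were lower, and 3 NK cell markers were higher and 1 lower. In LPS 5 neutrophil markers were lower, 3 B cell markers were higher and 3 lower, and 1 dendritic and 1 NK cell marker were higher against 3 lower in each list. The summed T cell, B cell and neutrophil markers were lower in every LPS library than in every Naïve library. The myeloid sums overlapped, but within each replicate number the LPS sum was lower than the Naïve sum. The sums were 250 against 419 CPM in replicate 1, 413 against 785 in replicate 2 and 442 against 779 in replicate 3. The part of these shifts in any Bcl2 family value was not tested.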

How the data were processed

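Reads had been pseudo-aligned by the authors to mm10 with Kallisto (version not given in the sources used here), and they deposited expected counts per gene symbol, 1 column per library, neither pooled nor scaled to depth. Their own analysis used DESeq2 1.24.0 per the submitters' notes. Between 8757 and 9980 genes per library held fractional values, since Kallisto divides reads that match several transcripts, and counts were rounded here. Libraries were grouped by the labels alone. Totals were 10.2 M to 27.6 M per library.

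Differences were tested with edgeR 4.0.16 in R 4.3.3 (quasi-likelihood) with TMM factors and filterByExpr, on all 12 libraries with the group as the only term, adjusted by the Benjamini-Hochberg method over 12122 genes, with a threshold of 0.05 and 6 comparisons beside the joint test. SE are from the same fit, and list values are medians of tested genes. The script was tested on simulated data. Same-numbered libraries of different groups deviated together in 18 of 18 pairs (r of deviations from group means across genes, 0.117 to 0.401), so a fit with the replicate block was made, and is given where it changed a call of a member or moved the count of a gene list by over 1.5 times. This pairing comes from the data, since no label says what a number stands for.

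Alternatives were library size alone, DESeq2 size factors, DESeq2 1.42.0, limma-voom (limma 3.58.1), no count filter, the block, only the 2 groups compared, Bcl2a1 rows summed and each library left out. The fits with replicates 2 and 3 only, and without replicate 1 of αCD3 and LPS, were chosen after seeing the data. Genes were annotated with GENCODE M21, and exon lengths are merged over transcripts. Named genes were the members, the Bcl2a1 rows, the called genes with the 3 largest changes per pathway list and comparison with Naïve (not all are given), and the 2 genes most like each member whose group means spanned at least 1 on log2 CPM (prior count 2). The members, the pathway lists and the marker lists (T cells, CD4 T cells, B cells, myeloid cells, neutrophils, dendritic cells and NK cells) were chosen with earlier results of these data known. The CD4 T cell markers summed to 91.1 to 149 CPM, neutrophil markers to 135 to 241, dendritic cell markers to 48.0 to 118 and NK cell markers to 117 to 261.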

Additional observations from a re-analysis of the deposited data

How the results depend on the processing

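Of 20 called values of single genes, 15 stayed called in all 22 alternatives, and none of the 20 changed direction. Numbers of called genes moved with the replicate number. With the replicate block 1 gene was called for IFNγ against Naïve, 5 for αCD3 against Naïve and 6 for IFNγ against αCD3, and with replicates 2 and 3 only the numbers were 1, 7 and 8 (23.3%, 48.8% and 45.4% of all tested genes), with 8 for LPS against Naïve (55.1%), 5 for αCD3 against LPS (29.4%) and 9 across the groups (66.4%). The block lost no call. With 1 library left out the number was 0 to 1 for IFNγ against Naïve, 3 to 7 for LPS against Naïve and 3 to 5 for IFNγ against αCD3. The shares of all tested genes are not given for those fits, so these ranges cannot be set against all genes. The cause of the moves in number was not tested. Library size alone moved the median over all genes to -0.16 (IFNγ), -0.13 (αCD3) and -0.22 (LPS).

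The values that turned sign were of comparisons not called for that gene in the fit of all 12 libraries without the block. Against Naïve, library size alone gave -0.12 for Bcl2l11 and -0.085 for Bbc3 in IFNγ, -0.0042 for Bcl2l11 in αCD3 and -0.050 for Bcl2 in LPS, no count filter gave -0.0037 for Bcl2l11 in IFNγ, and leaving out replicate 1 of αCD3 and LPS gave -0.012 for Bcl2l11 in αCD3. For IFNγ against αCD3, Bcl2l11 was 0.0056 with replicates 2 and 3 only and 0.034 without replicate 1 of αCD3 and LPS, and for αCD3 against LPS these gave -0.043 and -0.049 for Pmaip1. Bak1 for αCD3 against LPS was 0.10 with library size alone, 0.0062 with limma-voom, 0.011 with no count filter, 0.024 with the block and 0.0056 with only the 2 groups. With 1 library left out, values in IFNγ against Naïve ran from -0.34 to 0.13 for Bcl2, -0.33 to 0.019 for Bcl2a1b, -0.0022 to 0.063 for Bcl2l11 and -0.15 to 0.42 for Bbc3. The ranges were -0.012 to 0.16 for Bcl2l11 and -0.26 to 0.0055 for Pmaip1 in αCD3, -0.070 to 0.37 for Bcl2 in LPS, -0.14 to 0.034 for Bcl2l11 in IFNγ against αCD3, and -0.17 to 0.18 for Bak1 and -0.044 to 0.12 for Pmaip1 in αCD3 against LPS. Depth allowed all 9 genes to be tested. With 3 libraries per group small differences may be missed, which was not tested.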
